A study of Mus musculus with 155 samples.

Results

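The ME cells are 40 single cells of the adult mouse brain, 25.8% of all cells of the series, that the deposited description of the cells types as ME and that the labels name population OligNBL. They were sorted as positive for both a Gad67-GFP and an Olig2-Tomato reporter, and they were chosen here by that label and not by any measured value. No source used here says what the letters ME stand for. Live cells of the corpus callosum, a large white matter tract, and of the subventricular zone, where neurons are still born in the adult, were sorted into 96-well plates. The transcripts of each were then read along their whole length with SMART-Seq2.

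The OligNBL cells came from the cross of CB6-Tg(Gad1-EGFP)G42Zjh/J with Olig2-tdTomato TH39Gsat/Mmcd mice. The labels place them in mice examined 6 days after injection of lysolecithin (LPC), which strips myelin, whereas their titles and the deposited description carry a control mark, so their lesion state is uncertain. The remaining cells were 37 NB cells and 27 NBL cells, both Gad67-GFP-positive and from the CB6-Tg(Gad1-EGFP)G42Zjh/J strain, and 29 O cells and 22 OL cells, both Olig2-Tomato-positive and from the Olig2-tdTomato TH39Gsat/Mmcd strain. NB and O mice were healthy and not injected, and NBL and OL mice were examined 6 days after LPC. All mice were 8 to 10 weeks old, with 5 mice per condition. The EGFP transgene is driven by Gad1 sequences and the Tomato transgene by Olig2 sequences. Strain thus changed with the sorting gate and cannot be told apart from it. Because the labels do not tie cells to mice, each population counts as 1 sample, the SDs below are spreads between cells, and no test was possible.

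Neuroblasts of the subventricular zone are young migrating neurons, mostly fated to become inhibitory neurons, and carry microtubule proteins such as doublecortin (Dcx) and beta-III tubulin (Tubb3). Oligodendrocyte progenitors carry the growth factor receptor Pdgfra and the proteoglycans Cspg4 (NG2) and Ptprz1, and on maturing they switch to myelin genes such as Mbp. Demyelination of the corpus callosum draws cells of the subventricular zone towards the lesion.

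The level of a gene below is its mean log2(value + 1) over cells, where the deposited values are a normalized signal and not raw counts. A gene is called present in a cell when it is among the 500 highest genes of that cell. Differences between levels of at least 2 are counted as higher or lower. Levels of different genes are not compared, since the values are not divided by gene length. Between 720 and 1910 of 3422 genes were detected per OligNBL cell, with a median of 1397, against medians of 1114 in NB, 1161 in NBL, 1187 in O and 950.5 in OL. The part of these differences in the results was not tested beyond a repeat with only cells of at least 1000 detected genes, which gave 6.95% of genes higher in OligNBL than in each other population, where all cells gave 6.98%. For presence, 2 NB cells with fewer than 500 detected genes were left out. The sequencing depth is unknown, and shares are given with exact Clopper-Pearson 95% intervals where they matter most.

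The likeness of the OligNBL cells followed their numbering, which bears on every result below. Each title holds a cell number and, in brackets, a second number. By cell number the population falls into 5 runs of neighbouring numbers, which hold 4 cells (run 1, cells 10 to 16), 10, 6, 8 and 12 cells. Median genes detected in runs 1 to 5 were 1651.5, 1634, 1187, 1377.5 and 1350.5. The correlation of log2(value + 1) across genes had a median of 0.490 over 160 pairs of the same run and 0.244 over 620 pairs of different runs. The first 4 cells of run 5 nonetheless resembled the cells of run 4 (median 0.584, its first cell left out) more than the other 8 cells of their own run (0.280). The bracketed numbers gave a cleaner split into 5 stretches of at most 12 numbers, a choice made after seeing the data: numbers 17 to 28 (10 cells, the same as run 2), 35 to 38 (4 cells), 42 to 52 (7 cells), 54 to 65 (11 cells) and 66 to 74 (8 cells). Within stretches the median correlation was 0.531, and between stretches it was 0.236 over 625 pairs. A fall from pairs of the same run to pairs of different runs was not particular to OligNBL. The 2 medians were 0.471 and 0.303 in NB, 0.590 and 0.281 in NBL, 0.517 and 0.327 in O, and 0.575 and 0.252 in OL. Above cell number 21 each population held its own range of cell numbers, so number and population cannot be told apart there.

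Cells of different stretches were also alike at fixed distances in the numbering. The 19 pairs whose bracketed numbers differed by 12 had a median correlation of 0.512, against 0.344 at a difference of 11 and 0.329 at 13. At a difference of 37 the median was 0.401 over 12 pairs, against 0.168 at 36 and 0.193 at 38, and at 49 it was 0.363 over 8 pairs, against 0.162 at 48 and 0.145 at 50. These differences held the 3 highest medians among all with at least 5 pairs. The same grid appeared in the strongest genes: of the 10 highest genes of a cell, a median of 100% were present in its partner at a difference of 12, 37 or 49, 95% in cells of the same stretch and 35% in cells at any other difference. The labels do not say what a number stands for on the plates, and what places alike cells on this grid was not tested. Whether all RNA read in a cell was that cell's own was likewise not tested. Presence in many cells of a stretch is therefore not independent evidence from cell to cell, and binomial intervals over cells are too narrow.

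**Figure D1:**
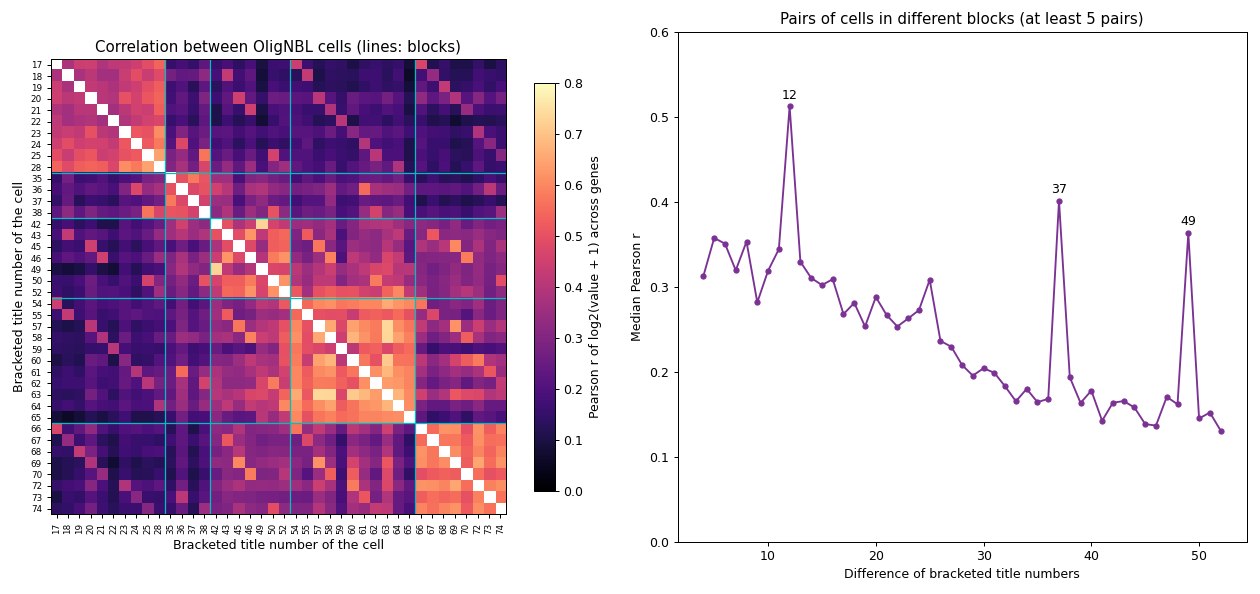
Left, Pearson correlation of log2(value + 1) across 3422 genes between all pairs of the 40 OligNBL cells, ordered by the bracketed title number on both axes, with lines between the stretches of numbers (named blocks in the panels). Right, median correlation of pairs in different stretches (y) against the difference of their numbers (x, differences with at least 5 pairs), which peaks at 12 (0.512), 37 (0.401) and 49 (0.363).

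Most OligNBL cells were nearest to their own population. With its own cell left out of the mean, 39 of the 40 cells correlated best with the mean profile of OligNBL, and with the whole run left out 38 did. The exception in both cases included cell 10, which correlated with the NBL mean at 0.427 and with the OligNBL mean at 0.411 before its run was left out. With the whole stretch left out, and again with the cells at differences of 12, 37 and 49 left out too, a check added after seeing the data, 38 did. The same check without the own run gave 35 of 37 NB, 20 of 27 NBL, 27 of 29 O and 16 of 22 OL cells nearest to their own population. Among the other populations, 28 cells were nearest to NBL, 9 to NB, 2 to O and 1 to OL. Pairs of an OligNBL cell with a cell of another population had median correlations of 0.131 for NBL, 0.116 for NB, 0.107 for O and 0.0942 for OL. These correlations are across genes, which are not independent replicates.

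The level was at least 2 higher in OligNBL than in each of the other 4 populations for 239 of 3422 genes (6.98%), and at least 2 lower than in each for 5 genes (0.146%). The same rule gave 5.84% of genes higher for NB, 5.49% for NBL, 5.64% for O and 5.29% for OL, and 0.234%, 0.0292%, 0.146% and 0.0877% lower. A set of this size was thus usual for a population of this table. The 4 proposed ME markers were Plxna2, Nono, Eva1c and Fxyd6, and 3 of them were among the 239 genes. All 4 were present together in 25 of 40 OligNBL cells (62.5%, 45.8 to 77.3) and in none of 35 NB, 27 NBL, 29 O and 22 OL cells. At least 3 were present in 38 OligNBL cells, in 2 NB cells and in no cell of the other populations. The markers were proposed with results of these data known, so these counts are a description.

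Plxna2 encodes plexin A2, a receptor for semaphorin guidance cues (GRCm38 chr1:194618218-194816869). Its log2(value + 1) in OligNBL cells ran from 1.54 through a median of 6.59 to 18.99. It had a median of 0 in NB, NBL and OL cells and 0.10 in O cells, with highest values of 6.14, 7.73, 5.48 and 13.31. The groups thus overlapped only through a minority of cells elsewhere. The level was 7.90 ± 3.88 (SD, n = 40) against 1.54 ± 2.67 in O, the nearest population, a difference of 6.36. Plxna2 was present in 38 of 40 OligNBL cells (95%, 83.1 to 99.4) and in at most 18.5% of the cells of another population. Run means in OligNBL lay between 7.12 and 8.52, above every run of the other populations, whose highest was 2.44. It was among the 100 highest genes in 11 OligNBL cells, spread over all 5 stretches, and in 1 cell, of O, elsewhere.

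Fxyd6 encodes a small membrane regulator of the sodium pump (chr9:45370185-45396159). OligNBL cells ran from 0 through 6.64 to 16.06, with a level of 7.50 ± 3.78. NB cells had a median of 0.23 and reached 15.47, with a level of 2.95 ± 3.88, and no O cell exceeded 2.82. Fxyd6 was present in 37 of 40 OligNBL cells (92.5%), 14 of 35 NB cells, 5 of 27 NBL cells, 1 of 22 OL cells and no O cell. NB cells were the only others with many positives.

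Eva1c encodes a single-pass membrane protein that binds heparin and Slit ligands (chr16:90826719-90905109). OligNBL cells ran from 0.51 through 5.40 to 13.54, a level of 5.85 ± 2.90, and the nearest population was NB at 1.96 ± 1.97. It was present in 80% of OligNBL cells, but its run means ranged from 3.25 in run 2 to 9.92 in run 3, and only 2 OligNBL cells had it among their 100 highest genes. The odorant receptor gene Olfr1124, on another chromosome (chr2:87430275-87436623), followed it from cell to cell (Pearson r of 0.92 over the 40 cells) and was present in the same number of cells of each run.

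Nono encodes a nuclear RNA-binding protein of paraspeckles (chrX:101429318-101448591). OligNBL cells ran from 0 through 5.16 to 16.62, a level of 6.71 ± 4.03. NB cells ran from 0 through 3.17 to 17.50, a level of 5.32 ± 5.52, so the difference of 1.39 did not reach 2. NBL, O and OL had levels of 1.29, 0.68 and 0.40. Nono separated the OligNBL cells from NBL, O and OL cells and not from NB cells, of which 18 of 35 had it present.

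**Figure D2:**
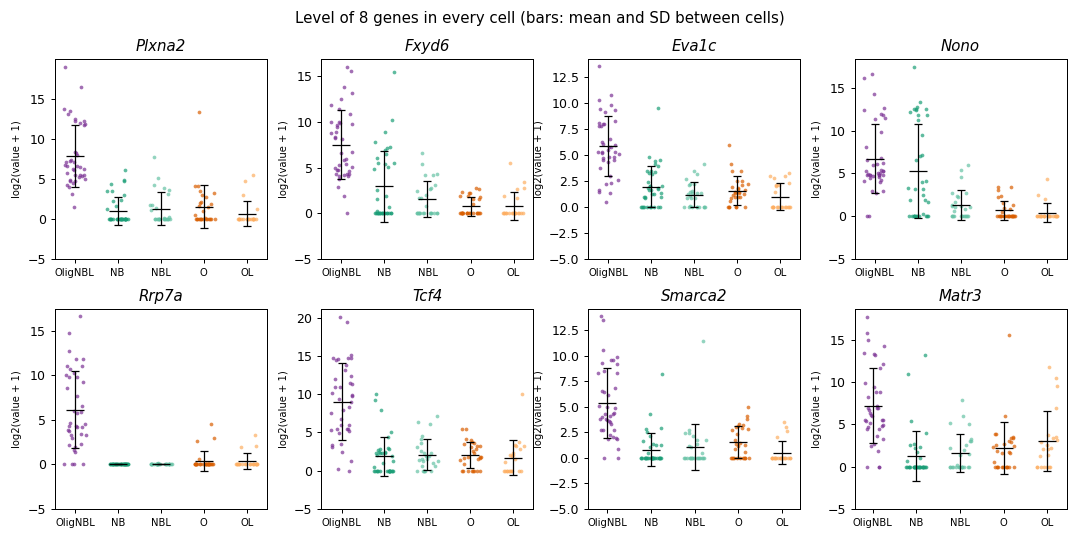
Log2(value + 1) in every cell (points, y) of the 5 populations (x) for the 4 proposed markers and 4 of the 12 named higher genes, with the mean and SD between cells as bars. Plxna2 lies between 1.54 and 18.99 in OligNBL with medians of at most 0.10 elsewhere, whereas Nono reaches 17.50 in NB cells.

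The 12 genes with the widest margin of presence, among the 239, were Plxna2, Rrp7a, Tcf4, 4833439L19Rik, Rpl12, Smarca2, Eva1c, Olfr1124, Matr3, 2610005L07Rik, Nme1 and Dhx15. Tcf4, an E-protein transcription factor that pairs with proneural factors, had a level of 9.01 ± 5.03 in OligNBL against at most 2.10 elsewhere and was present in 82.5% of OligNBL cells against at most 22.2%. Smarca2, an ATPase of BAF chromatin remodelling complexes, had 5.35 ± 3.45 against at most 1.55. Matr3, which encodes the nuclear matrix protein matrin 3, had 7.23 ± 4.48 against at most 3.03.

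Rrp7a, a ribosomal RNA processing factor, was at 6.13 ± 4.37 in OligNBL, and no NB or NBL cell exceeded 0.13. Its presence was 67.5% in OligNBL and at most 3.45% elsewhere, but it was present in no cell of run 1. Rpl12, a protein of the large ribosomal subunit, was at 6.17 ± 5.07 against at most 0.50. It was present in 12 of 12 cells of run 5 and 1 of 10 cells of run 2. Nme1, a nucleoside diphosphate kinase, was at 6.46 ± 5.52 against at most 0.66, and Dhx15, a helicase that takes spliceosomes apart, at 4.53 ± 4.38 against at most 0.40. 4833439L19Rik was at 9.56 ± 5.52 with OL nearest at 3.77. The annotated pseudogene 2610005L07Rik was at 5.26 ± 3.62 against at most 1.36. Of 37 named genes looked up, 21 overlap another annotated gene, among them Plxna2, Eva1c, Rrp7a (Serhl), 4833439L19Rik (Simc1), Nme1 (Gm20390), Tubb3 (Gm20388) and Hnrnpk (Rmi1). The method does not mark strand, so reads of such pairs may be shared, and near-identical copies exist for ribosomal protein and similar genes such as Rpl12.

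A gene could pass the rule while being switched on in part of the population only. Of the 239 genes, 51.9% were present in at least 80% of the cells of some OligNBL run and in at most 20% of the cells of another, against 397 of all 3422 genes (11.6%). The share among the higher genes of the other populations, over their own runs, was 35% for NB, 36.7% for NBL, 23.3% for O and 51.9% for OL. These shares are not like for like, since more runs give more room for switching. OligNBL and NB had 5 runs, and NBL, O and OL had 3 each, with an O run of 2 cells left out. Without run 2 it was 24.6% of 272 genes for OligNBL, against 4.12% of all genes at that setting. Counted over the stretches of bracketed numbers, it was 80.3% of the 239 against 589 of 3422 (17.2%). The stretches were chosen after seeing which cells were alike, which favours such genes, so counts over stretches are a description only. In 162 of the 239 genes exactly 1 stretch reached 80%, which was not counted over all genes. Of the 239 genes, 16 were present in at least 80% of all OligNBL cells. The same count was 20 for NB, 12 for NBL, 17 for O and 10 for OL, each with fewer higher genes. This share was reached in every run by 5 genes in OligNBL and by 4, 5, 14 and 3 in NB, NBL, O and OL. The 5 OligNBL genes, which reached it in every stretch too, were Plxna2, Tubb3, Map1b, Ubb and Ddx5. Neither count was made over all genes. Map1b, a microtubule-binding protein of growing axons, was present in 40 of 40 OligNBL cells at 11.52 ± 3.54, against 7.78 ± 4.23 in NBL. Ubb, a polyubiquitin gene, was at 9.75 ± 2.98 against 7.65 ± 4.38 in NBL, and Ddx5, an RNA helicase, at 9.49 ± 4.39 against 6.73 ± 3.42 in NB. These 3 were also present in most NB or NBL cells.

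All 5 OligNBL runs lay above all 15 runs of the other populations for 57 genes (1.67%), and all lay below for 1 gene (0.0292%). The same count above was 24 for NB (0.701%), 57 for NBL (1.67%), 22 for O (0.643%) and 56 for OL (1.64%), and below it was 8 (0.234%), 1 (0.0292%), 3 (0.0877%) and 23 (0.672%). The populations differed in their number of runs (5 for NB, 3 for NBL, 4 for O and 3 for OL), so these counts are not like for like. Without the cells numbered up to 21, which removes run 1 together with 6 NB and 2 O cells, the share above was 4.97% of genes for OligNBL. It was not counted for the other populations.

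Genes lacking in OligNBL were few. Stmn1, which encodes the microtubule-destabilising protein stathmin of migrating neuroblasts and progenitors, ran from 0 through 0.38 to 9.09 in OligNBL cells, with a level of 1.18 ± 1.77. Medians elsewhere were 10.09 in NB, 4.58 in NBL, 2.98 in O and 2.41 in OL. The nearest population was O at 5.26 ± 5.10, a difference of 4.08. Stmn1 was present in 3 of 40 OligNBL cells (7.5%, 1.6 to 20.4), in 34 of 35 NB cells, 16 of 27 NBL cells, 14 of 29 O cells and 10 of 22 OL cells, and no OligNBL cell had it among its 100 highest genes.

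Syt11, a synaptotagmin of vesicle traffic, was at 1.79 ± 2.70 against 5.52 to 7.11 elsewhere. Its run 1 mean was 6.75, with 3 of 4 cells positive, and the other runs lay between 0.51 and 1.76. Hnrnpk, an RNA-binding protein of the nucleus, was at 2.87 ± 3.29 in OligNBL and 5.33 ± 3.58 in NBL. It was present in all 29 O cells and all 22 OL cells at 11.50 ± 3.31 and 12.14 ± 4.09. Its presence in OligNBL differed between the stretches of bracketed numbers. In rising order of numbers, it was present in 10%, 0%, 57.1%, 72.7% and 12.5% of their cells. Hnrnpc, a nuclear protein that packages pre-mRNA, reached at most 2.34 in any OligNBL cell and was present in 0 of 40 (up to 8.81%), against 27.6% to 59.3% elsewhere. H3f3b, which encodes histone H3.3, was lower in level (7.49 ± 4.49 against at least 9.93) but present in 82.5% of OligNBL cells. Run 2 was at 1.91 with 3 of 10 cells positive, and the other run means lay between 7.19 and 10.41. Without run 2 the difference fell from 2.44 to 0.58, under the limit of 2. Near-identical copies exist for such histone and ribonucleoprotein genes, and reads may be shared among them.

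**Figure D3:**
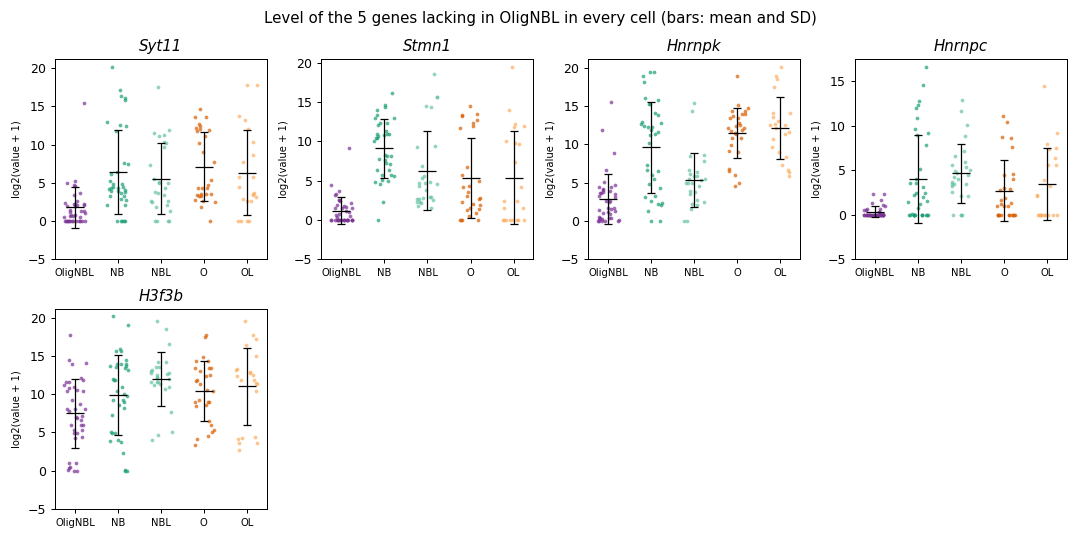
Log2(value + 1) in every cell (points, y) of the 5 populations (x) for the 5 genes at least 2 lower in OligNBL than in each other population, with the mean and SD between cells as bars. Hnrnpc stays at or under 2.34 in all OligNBL cells, whereas H3f3b spreads from 0 to 17.75 there.

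The sorting reporters were only partly mirrored in the RNA. EGFP was at 3.48 ± 3.30 in OligNBL, between NB (5.19 ± 3.19) and NBL (2.42 ± 1.96), and was present in 12 of 40 cells (30%). Gad1, the GABA-synthesising enzyme whose sequences drive EGFP, ran from 0 through 4.65 to 15.24 in OligNBL, at 5.53 ± 4.56. That was above NBL (1.63 ± 1.71), O (0.34 ± 0.94) and OL (0.42 ± 1.17). The difference from NB (3.59 ± 3.26) did not reach 2. Gad1 was present in 55% of OligNBL cells, in all 8 cells of the stretch 66 to 74 and in 25% to 71.4% of the cells of each other stretch. All 7 OligNBL cells with Gad1 among their 100 highest genes lay in 1 stretch. TdTomato was at 0.31 ± 1.24, present in 1 of 40 OligNBL cells and in 1 of 29 O cells, so the gate for Tomato could not be checked from this transcript.

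Against single populations, OligNBL was higher by at least 2 than NB for 438 genes (12.8%) and lower for 411 (12%). Against NBL these were 418 (12.2%) and 352 (10.3%), against O 439 (12.8%) and 388 (11.3%), and against OL 450 (13.2%) and 418 (12.2%). The lists below were read against these shares, and the median difference over all genes was between 0.02 and 0.13.

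Of 27 neuroblast genes, 23 were measured. In OligNBL 6 were higher and 5 lower than in NB, 6 higher and 5 lower than in NBL, 11 higher and 1 lower than in O, and 12 higher and 1 lower than in OL, with median differences of 0.99, -0.27, 1.51 and 2.15. Leaving out 1 OligNBL run at a time moved the first to between 0.29 and 1.03 and the second to between -0.52 and 0.33. Neuroblast genes thus set OligNBL apart from O and OL mostly in 1 direction, and from NB and NBL in both. Tubb3 ran from 0 through 9.91 to 16.42 in OligNBL, at 8.81 ± 4.07, with NBL at 5.57 ± 4.72 and the others at 1.56 or less, and it was present in 95% of OligNBL cells. Meis2, a homeodomain factor of olfactory interneurons, was at 4.15 ± 2.52 against at most 1.23. Tubb2b, another neuronal tubulin, was at 6.04 ± 4.63 against 3.61 ± 3.49 in NBL. On the other side, Sp8, a zinc finger factor of subventricular neuroblasts, was at 0.60 ± 2.03 against 7.63 ± 5.49 in NB. Stmn2 was at 0.50 against 5.17 in NB, and Dpysl3, a growth cone protein, at 4.32 against 8.25 in NBL. Dcx was at 3.61 ± 4.66, with 5.46 in NB, 5.14 in NBL, 1.40 in O and 1.73 in OL, and was present in 0 of 10 cells of run 2 and 5 of 6 of run 3.

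Of 18 oligodendrocyte progenitor genes, 8 were measured. In OligNBL 4 were higher than in NB, 3 than in NBL, 4 than in O and 4 than in OL, and 1 (Sox10) was lower than in OL. The median difference from NBL, 0.68, lay between 0.01 and 1.18 when 1 run was left out. Cspg4, Ptprz1 and Lhfpl3 were higher than in each of the 4. Cspg4 was at 4.08 ± 5.44 in OligNBL and at most 1.62 elsewhere, Ptprz1 at 3.52 ± 3.92 and at most 0.91, and Lhfpl3, a membrane protein of progenitors, at 2.88 ± 3.48 and at most 0.59. Pdgfra was at 4.05 ± 4.48, with NBL at 2.75 ± 3.94 and the others at 1.58 or less. The lineage transcription factor genes Olig1 and Sox10 were at 0.90 and 0.58 in OligNBL and were present in 3 and 2 of the 40 cells.

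Progenitor genes overlapped in part: at least 2 of 6 were present in 19 of 40 OligNBL cells, 9 of them in run 2. Pdgfra was present in 10 of 10 cells of run 2, 2 of 4 of run 1, 3 of 6 of run 3, 0 of 8 of run 4 and 2 of 12 of run 5. By stretch it was present in all cells numbered 17 to 28 and 35 to 38 and in 1 cell of each later stretch. Lhfpl3 went with Pdgfra over the 40 cells (r of 0.97), and the 15 cells that had it present all had Pdgfra. Levels of Ptprz1 did not follow those of Pdgfra (r of 0.01). Both were present in 7 of 10 cells of run 2, whereas Ptprz1 was present in 7 of 12 cells of run 5 and both together in 1 of them. Cspg4 had its highest run means in run 1 (9.40) and run 3 (9.41), and its correlation with Pdgfra was 0.16. The points of these correlations share stretches of numbers.

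For the marker Fxyd6 and for the progenitor receptors Pdgfra and Ptprz1, which were present together in 9 of 40 OligNBL cells and were otherwise met apart, the 250 bases before the annotated start are shown from RefSeq (GRCm38.p6), 5' to 3', with the E-box CANNTG, the motif bound by E-proteins such as Tcf4, in capitals. The motif reads the same on both strands.
Fxyd6 (chr9:45369935-45370184, plus strand): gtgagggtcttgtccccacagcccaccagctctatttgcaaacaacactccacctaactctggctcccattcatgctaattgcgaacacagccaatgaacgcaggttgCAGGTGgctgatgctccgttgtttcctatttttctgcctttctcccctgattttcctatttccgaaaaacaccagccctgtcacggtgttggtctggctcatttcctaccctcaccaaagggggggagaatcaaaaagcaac
Pdgfra (chr5:75152001-75152250, plus strand): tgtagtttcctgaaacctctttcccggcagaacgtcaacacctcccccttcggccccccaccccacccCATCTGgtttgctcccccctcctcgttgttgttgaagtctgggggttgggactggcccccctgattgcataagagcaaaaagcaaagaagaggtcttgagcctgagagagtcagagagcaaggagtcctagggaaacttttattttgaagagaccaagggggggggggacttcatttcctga
Ptprz1 (chr6:22875252-22875501, plus strand): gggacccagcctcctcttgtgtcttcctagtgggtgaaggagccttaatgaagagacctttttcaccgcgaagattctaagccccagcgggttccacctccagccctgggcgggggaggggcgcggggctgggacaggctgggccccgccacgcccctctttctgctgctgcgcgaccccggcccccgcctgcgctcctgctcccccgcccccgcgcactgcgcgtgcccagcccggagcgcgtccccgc
The first 2 windows held 1 E-box each and the Ptprz1 window none. An E-box stood in 66.2% of all 32851 windows in the table, in 56.2% of those of measured genes and in 57.5% of those of genes higher in OligNBL than in each other population, so its share among the latter was near the background. A match is a description of letters only.

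Neuroblast and progenitor genes were met in the same cell in a larger share of OligNBL cells than of cells elsewhere. At least 1 of 8 neuroblast markers and 1 of 6 progenitor markers were present together in 30 of 40 OligNBL cells (75%, 58.8 to 87.3), against 6 of 35 NB (17.1%), 9 of 27 NBL (33.3%), 8 of 29 O (27.6%) and 6 of 22 OL cells (27.3%). The 8 were Dcx, Tubb3, Sox11, Cd24a, Stmn2, Dlx1, Dlx2 and Sp8. The 6 were Pdgfra, Cspg4, Ptprz1, Olig1, Sox10 and Lhfpl3. Both sets are parts of the longer lists and were chosen with earlier results of these data known. Tubb3, Cspg4, Ptprz1 and Lhfpl3 were themselves among the genes higher in OligNBL than in each other population. The larger share is therefore a description. Having 1 of the 8 was a weak mark: it was met in 18 of 22 OL and 13 of 29 O cells. At least 2 of the 8 were present in 39 of 40 OligNBL, 30 of 35 NB, 25 of 27 NBL, 6 of 22 OL and 5 of 29 O cells. All OligNBL cells had a neuroblast gene, so the progenitor genes decided the share: it was 3 of 4, 10 of 10, 6 of 6, 2 of 8 and 9 of 12 cells in runs 1 to 5. Among only the 300 highest genes of a cell it was 52.5% in OligNBL and at most 22.2% elsewhere, and among the 100 highest 5 of 40 (12.5%, 4.19 to 26.8) against 1 of 27 NBL cells and none in NB, O and OL. Joint presence thus rested largely on genes of middle rank, where cells of the same stretch were alike, and whether both sets came from the RNA of the same cell was not tested. Gad1 was present with Ptprz1 in 11 cells, 7 of them in run 5, and with Pdgfra in 7 cells, and neither pair was met in more than 1 cell of another population.

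**Figure D4:**
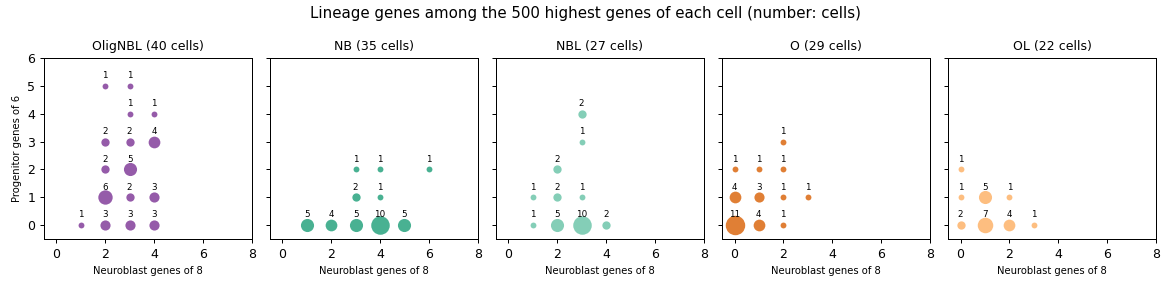
Number of 8 neuroblast genes (x) and of 6 progenitor genes (y) among the 500 highest genes of each cell, by population, with the number of cells beside each point and point area in proportion to it. In OligNBL 30 of 40 cells lie at 1 or more on both axes, and 10 lie at 0 progenitor genes.

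Myelin genes were near 0. All 15 measured members of the mature oligodendrocyte list had an OligNBL level below 1, and 13 were lower than in O and 14 lower than in OL, with median differences of -7.03 and -7.38. Mog, a glycoprotein of the outer myelin surface, was listed at 0 in every OligNBL cell, against levels of 5.35 ± 4.60 in O and 5.98 ± 4.36 in OL. No member was higher or lower than in NB or NBL. At least 1 member was present in 5 of 40 OligNBL cells and in every O and OL cell. The summed level of the list ran from 0 to 19.05 over OligNBL cells, from 78.68 to 147.07 over O cells and from 40.32 to 164.61 over OL cells, with no overlap.

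Markers of other cell types were thinly covered. No member of the microglia, mural and ependymal lists was measured, and 3 of 17 astrocyte and neural stem cell genes and 2 of 8 endothelial genes were. The summed level of the 3 had a median of 4.50 in OligNBL cells (0 to 16.86), 0.26 in NB (0 to 9.71), 2.23 in NBL (0 to 17.57), 0 in O (0 to 14.61) and 0 in OL (0 to 5.86). Cst3, a secreted protease inhibitor, was at 3.64 ± 4.06 in OligNBL and 1.72 ± 1.92 in NBL, Fabp7, a fatty acid carrier of radial glia, at 1.95 ± 2.83 and 0.60 ± 1.40, and Apoe at 0.49 ± 1.09 and 1.62 ± 2.47. Of the 3, 1, 0, 1 and 1 were higher and none lower than in NB, NBL, O and OL. Pecam1, an endothelial adhesion molecule, was present in 95% of OligNBL cells at 8.11 ± 3.40, and at 6.54 to 10.53 in the other populations. The part of these markers in the results was not tested. Of 2 mature neuron genes, Snap25 was at 1.71 ± 2.31 and Map2 at 1.24 ± 2.19 in OligNBL, with O at 6.20 for the first and NB at 6.23 for the second.

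Of 52 listed guidance genes, 16 were measured, and 5, 4, 4 and 6 were higher and 0, 2, 1 and 1 lower in OligNBL than in NB, NBL, O and OL. Slit1, a repulsive ligand for Robo receptors, was at 4.73 ± 5.09 against at most 1.51, with run means of 0.76, 1.28, 3.12, 5.49 and 9.23 in runs 1 to 5. Sema3c, a secreted semaphorin, had a level of 2.08 ± 3.58 and was at 5.35 in run 5 and at most 1.00 in the other runs. Plexin B2 (Plxnb2) showed the opposite order, with 4.30 and 4.81 in runs 1 and 2 and 0.60 in run 5. Plxna2, by contrast, differed between runs by less than its SD between cells.

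Among nuclear RNA-binding genes, 32 of 53 were measured, and 7, 8, 7 and 7 were higher and 8, 10, 5 and 8 lower than in NB, NBL, O and OL. The list as a whole did not lean to 1 side, although both ends of the table held its members. Sfpq, the paraspeckle partner of Nono, was at 4.89 ± 4.66 against at most 2.46. Hnrnph1, a splicing regulator, was at 3.16 ± 3.32 against at most 0.69 and was present in 10 of 10 cells of run 2. Ccnl2 was at 1.24 ± 3.22 against 6.06 ± 3.66 in NB, and the splicing factor Sf3b1 at 1.69 ± 2.45 against 7.63 ± 4.25.

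Of 28 chromatin genes, 18 were measured, and 4, 2, 4 and 5 were higher and 6, 5, 1 and 4 lower than in NB, NBL, O and OL. Subunits of BAF complexes differed among themselves. Smarca4, the alternative ATPase to Smarca2 (described above and not in the list), was at 3.02 ± 3.48 against at most 0.52, and Smarcc1 at 3.08 ± 2.94 against at most 0.76. Smarce1 was at 1.22 ± 2.79 against 7.32 in NB and 9.29 in NBL. Smarca4 was present in 9 of 12 cells of run 5 and in 1 of 10 of run 2. The bromodomain gene Brd2 was at 0.45 ± 0.91 against 6.04 in NB and 6.92 in NBL.

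The genes with the widest range of run means inside OligNBL were Mapre3, Rabif, D430042O09Rik, 1810013L24Rik, Tchp, Smarcc2, Insr, Gm10800, Snx6 and Tcf4. Mapre3, which encodes a protein of growing microtubule ends, had a run mean of 16.62 in run 3, with 6 of 6 cells positive, and between 2.33 and 8.01 elsewhere. Rabif, a factor of vesicle traffic, was at 13.07 in run 3, at most 2.81 in the other OligNBL runs and up to 10.9 in a run of another population. 1810013L24Rik, Tchp (a keratin-binding centrosomal protein), Insr (the insulin receptor) and Snx6 (a sorting nexin) peaked together in run 4, at 12.54, 12.47, 13.08 and 11.93, with 6.23 to 7.20 in run 5 and at most 4.40 in runs 1 to 3. Smarcc2, another BAF subunit, was at 12.06 in run 1 and at most 4.34 elsewhere, and reached 16.57 in a run of another population. Tcf4, with run means of 2.96 in run 1 to 14.28 in run 3, was present in 50% of run 1, 62.5% of run 4 and over 80% of the cells of the other runs.

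**Figure D5:**
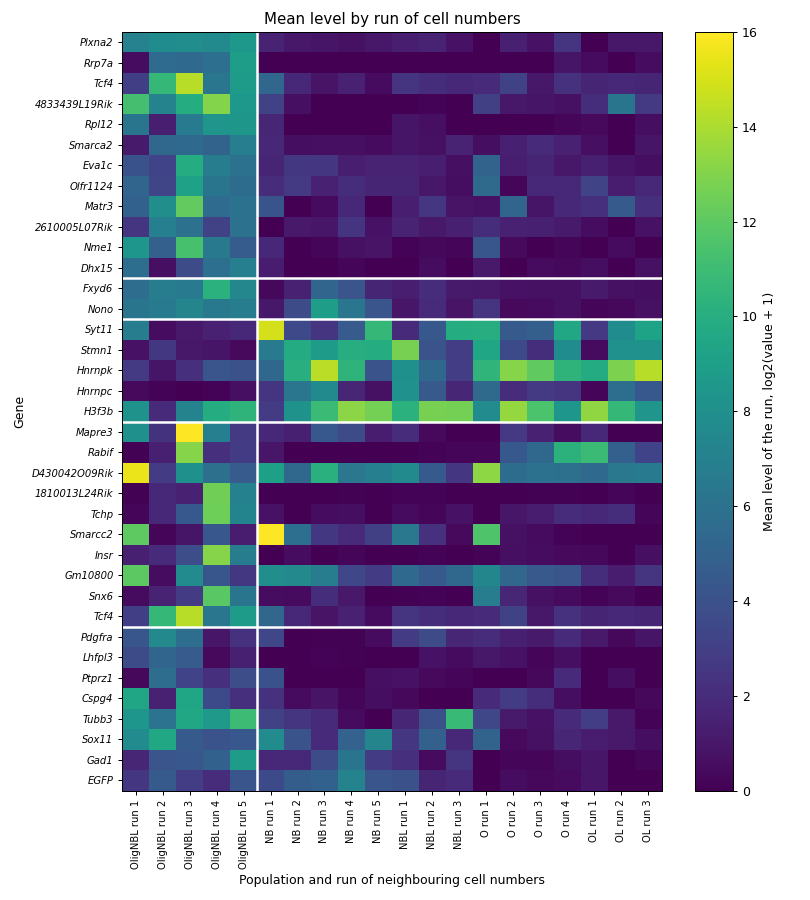
Mean log2(value + 1) (colour) of each run of neighbouring cell numbers (x, 5 OligNBL runs left of the line and 15 runs of the other populations) for named higher, proposed marker, lacking, varying and lineage genes (y, groups divided by lines). Plxna2 is at 7.12 to 8.52 in all OligNBL runs, whereas Insr is at 13.08 in run 4 and at most 6.80 in every other run.

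Run 2 was the least like the other runs, with mean correlations of 0.174 to 0.248 with them, against 0.174 to 0.375 for run 1. In run 1, cells 10 and 11 correlated at 0.58 with each other, and cells 14 and 16 at 0.73. Cell 14 of this run correlated at 0.56 with an NB cell and at 0.55 with an O cell, beyond its highest value with any OligNBL cell outside run 1 (0.50). Run 1 as a whole had a mean correlation of 0.330 with the 2 O cells numbered up to 21, and 0.175 with later O cells. With the 6 NB cells numbered up to 21 it was 0.259, with later NB cells 0.220, and with later OligNBL cells 0.259. Why run 1 was as like these early cells as its own population was not tested. Run 1 lacked Rrp7a, Smarca2 and Ptprz1 from the 500 highest genes in all 4 cells and held Syt11 and Cspg4 in 3 of 4.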

How the data were processed

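Single-cell values were analysed for 5 sorted populations and 3422 genes. The authors deposited a table named for estimated counts, but its values behave as normalized signal: column totals lay between 5155899 and 5161091 and the 8 highest values were equal in all cells (relative tolerance 1e-06). The unit was therefore treated as signal and no count test was run. Per the submitters' processing notes, kallisto, limma and GRCm38 were used, and no source used here gives their roles, their versions or the choice of genes. The 10 highest genes held 75.5% of a cell's total.

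Groups came from the labels. Named genes were the 12 with the largest smallest difference of presence among genes at least 2 higher than in each other population, all 5 that were lower, the 10 with the widest range of run means, the proposed markers, and up to 6 members of each gene list. The members and lists were chosen with earlier results of these data known. Computation used Python 3.11.15, numpy 2.4.6, pandas 2.3.3 and scipy 1.17.1, and was tested on simulated data with 200 genes shifted by 3. Gene positions are from GENCODE vM21 (GRCm38), matched by symbol for 3314 of 3422 genes. Alternatives changed the pseudocount (10), the thresholds, the cells kept, the weighting and the likeness measure. Intervals cover counting error only. 1 gene named by the rule is not reported here.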

Additional observations from a re-analysis of the deposited data

How the results depend on the processing

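Of 751 alternative values, 666 moved by less than 1.5 times (counts), 1 SD between cells or pairs (levels, presence, lists and correlations) or the 95% interval (shares of cells). That limit is wide for single genes: the H3f3b difference fell from 2.44 to 0.58 without run 2 and 1.68 with cells of at least 1000 genes, both under 2. The Hnrnpk difference fell from 2.46 to 1.81 without run 2 and 1.49 with a pseudocount of 10. With that pseudocount the Hnrnpc difference fell from 2.34 to 1.26. Those of Stmn1 and Syt11 were lowest at 2.84 and 2.54, both with that pseudocount. Counts of genes, given here as percent of all genes, followed the threshold and the pseudocount. With a difference of at least 1, at least 3 and a pseudocount of 10, the share higher than NB was 27.5%, 5.90% and 4.65%, than NBL 25.7%, 5.49% and 4.27%, than O 27.1%, 6.17% and 4.91%, than OL 27.3%, 6.22% and 4.88%, and than each 16%, 2.98% and 2.63%. The share lower than NB was 18.9%, 6.6% and 5.79%, than NBL 20.3%, 5.87% and 5.76%, than OL 21.1%, 6.96% and 5.52%, and than each 0.555%, 0.0584% and 0.0877%. The share lower than O was 19.7% at a difference of 1 and 6.87% with the pseudocount. Without 1 run at a time, the share lower than each was 0.0877% to 0.146%, lowest without run 2.

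Genes higher than each that switched between runs (3.62%) made up 6.37%, 1.69% and 1.58% under the same 3 settings, 1.78% among the 300 highest genes, 1.11% for any value above 0, and 1.96% to 3.77% without 1 run, lowest without run 2. Genes switching overall (11.6%) made up 4.30% among the 300 highest, 21.6% for any value above 0, and 4.12% to 10.9% without 1 run, again lowest without run 2. In alternatives chosen after seeing the data, stretches of bracketed numbers gave 5.61% for the former, and the 100 highest genes gave 0.117% and 0.701%. Genes with all runs above the others (1.67%) made up 0.994% at a level of at least 3, 4.97% without the cells up to 21, and 2.02% to 3.51% without 1 run (3.51% without run 1, 3.33% without run 2). Genes with all runs below (0.0292%) made up 0.380% without the early cells and 0.0292% to 0.146% without 1 run (0.146% without run 1, 0.0877% without run 3 or 5).

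The pseudocount of 10 gave medians of -4.39 and -4.76 for the mature list against O and OL, 1.05 for neuroblast genes against OL, -0.13 and 0.24 for nuclear RNA-binding genes against NBL and OL, and a same-run correlation of 0.349. Cells with at least 1000 genes gave -8.19 for the mature list against OL. Nuclear RNA-binding genes against OL lay between 0.29 and 0.81 without 1 run. Between 94.1% and 100% of OligNBL cells were most like OligNBL without 1 run, and 100% were with the pseudocount. Cells with both a neuroblast and a progenitor gene made up 52.5% among the 300 highest genes, 12.5% among the 100 highest, 97.5% for any value above 0, and 66.7% to 87.5% without 1 run.

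The difference of presence of H3f3b turned to -3.11 percentage points for any value above 0 and lay between -5.71 (without run 2) and 19.3 without 1 run, where a negative value means higher in OligNBL than in the nearest population, and that of Olfr1124, where a negative value means lower in OligNBL, to -2.05 among the 100 highest genes. Beyond fewer cells or genes, the cause was not tested. No paired analysis was possible because each population is 1 sample, no result comes from a test and the replicate numbers only name cells. Without raw counts the depth of a cell is unknown, so a gene outside the 500 highest may be present but not detectable.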

Other observations

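Pcna, the clamp of replicating DNA, was among the 500 highest genes in all 10 OligNBL cells of run 2, at a run mean of 5.99, and in 2 of the other 30, whose run means were at most 0.55. It was singled out after its values were seen. The cycling list did not follow it: of its 7 measured members, 0 were higher and 2 lower than in NB, 0 higher and 3 lower than in NBL, 1 higher and 0 lower than in O, and 1 higher and 3 lower than in OL. In run 2 the median run mean over the 7 was 0, with 1 or 2 present per cell.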
